A study of Mus musculus with 18 samples.

Results

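The regions of accessible chromatin described here lie at 8 mouse genes of the follicular helper T cell programme: Bcl6, Ascl2, Pou2af1, Cxcr5, Il21, Sh2d1a, Il6ra and Il6st. A region belongs to a gene where the authors' table names the gene as overlapped or as lying to its left or right. This gave 51 of the 65983 regions, at 7 of the 8 genes, and no region named Ascl2. The assay was ATAC-seq, which reads out where a transposase can insert adapters into open chromatin, and 18 samples formed 6 groups of 3. The groups are Id3-KO and WT cells labelled Th1 at 24 h, Tcmp at 72 h and Teff at 72 h, with Tcmp and Teff used as the labels give them. All were CD4 T cells that had started naive, were activated with beads against CD3 and CD28, and were kept in Th1 medium with IL2, IL12 and an antibody to IL4. The sources used here do not give how Id3 was deleted, the mice's strain and age, or whether replicates came from different mice.

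Follicular helper T cells are CD4 T cells that enter B cell follicles and help B cells form germinal centres. Signals through the IL-6 receptor and the T cell receptor lead to the repressor Bcl6, and the cells then carry the chemokine receptor Cxcr5 and secrete IL-21. Th1 culture steers cells towards another fate. Id3 holds back E proteins, which bind the DNA motif called the E box, and Id3 is known in mice as a restraint on follicular helper differentiation.

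The table lists the same 65983 regions under each of its 6 contrasts, without any per-sample measurement. It therefore shows a set of regions shared by all contrasts, and not from which groups a region was found. Nor does it show whether a region differed in openness between genotypes, cell labels or times. Each region is a run of windows of 300 bp placed every 50 bp, so that the number of windows grows with the width of the region. Neighbouring windows overlap, so even a short open stretch can fall in several of them. The number of windows is therefore no direct measure of the length of open chromatin. The p-values listed at these loci followed row order and region size, as shown in the last paragraphs, and neither they nor the fold changes of the same rows, which were not used, are read as a change of a gene. Regions were listed at 8 of 9 CD4 T cell marker genes (median 6 per gene). They were also listed at 2 of 2 CD8 T cell markers (median 1.5), so the counts do not tell the T cell types apart. Of the B cell, myeloid and erythroid genes, 10 of 13 had a region (median 2). Over all protein-coding RefSeq symbols the share was 70.9%, with a median of 2. No expression values were used, and a listed region is not read as a measure of expression. The exception among the CD4 T cell markers was Trac, for which other spellings in the table were not looked for.

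RefSeq promoter windows, which run from 250 bases before to 50 bases after a gene's start, were given for 6 of the 8 genes and are quoted on the build GRCm38.p6. The regions are on GRCm39, so the windows were not placed on them. The 4 windows below were chosen after their values were seen. Bcl6 is shown because it holds several STAT motifs. Il21 and Pou2af1 are shown for a promoter region and the lowest CpG content among the 6 genes, near the middle of all windows. Ascl2 is shown for a higher CpG content and no region. Capitals mark the E box CAGNTG and the STAT motif TTCNNNGAA, each sought on both strands, and the letters run 5′ to 3′ along the gene. The Bcl6 window is that of its second RefSeq start (chr16:23981234-23981533, minus strand). The others are those of Il21 (chr3:37232587-37232886, minus strand), Pou2af1 (chr9:51213440-51213739, plus strand) and Ascl2 (chr7:142969215-142969514, minus strand).
Bcl6: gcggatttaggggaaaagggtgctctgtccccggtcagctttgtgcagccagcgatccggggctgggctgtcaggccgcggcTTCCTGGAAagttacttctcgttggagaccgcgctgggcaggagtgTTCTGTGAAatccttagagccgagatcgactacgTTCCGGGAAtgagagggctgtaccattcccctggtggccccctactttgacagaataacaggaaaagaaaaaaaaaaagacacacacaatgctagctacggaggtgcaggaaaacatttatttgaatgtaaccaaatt
Il21: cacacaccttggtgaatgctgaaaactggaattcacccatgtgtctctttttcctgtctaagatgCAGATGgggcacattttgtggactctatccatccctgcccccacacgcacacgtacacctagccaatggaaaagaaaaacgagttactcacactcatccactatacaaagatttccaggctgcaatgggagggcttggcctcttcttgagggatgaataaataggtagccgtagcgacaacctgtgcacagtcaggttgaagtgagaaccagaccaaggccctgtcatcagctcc
Pou2af1: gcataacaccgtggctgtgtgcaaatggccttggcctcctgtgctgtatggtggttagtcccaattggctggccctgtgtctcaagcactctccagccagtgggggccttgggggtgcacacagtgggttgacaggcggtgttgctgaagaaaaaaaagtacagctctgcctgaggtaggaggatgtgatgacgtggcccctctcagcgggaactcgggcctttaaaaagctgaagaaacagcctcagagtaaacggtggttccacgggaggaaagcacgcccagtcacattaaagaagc
Ascl2: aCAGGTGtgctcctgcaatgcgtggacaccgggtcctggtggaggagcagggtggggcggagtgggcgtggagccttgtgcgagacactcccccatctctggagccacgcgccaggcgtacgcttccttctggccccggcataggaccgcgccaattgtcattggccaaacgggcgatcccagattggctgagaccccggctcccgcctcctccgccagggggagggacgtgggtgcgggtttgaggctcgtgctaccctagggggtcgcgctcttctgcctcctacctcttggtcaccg

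Il6ra had the most regions, 17, followed by Cxcr5 with 10 and Il6st with 8. Bcl6 and Sh2d1a had 5 each, and Il21 and Pou2af1 had 3 each. Over the 26755 genes that the table names, the median was 2 regions per gene (quartiles 1 and 3). More regions than at Il6ra were listed at 0.863% of these genes, and more than at Cxcr5 at 2.75%. The share was 4.27% for Il6st, 9.74% for Bcl6 and Sh2d1a, and 22.1% for Il21 and Pou2af1. These shares are not corrected for gene length, and a long gene has room for more regions. The genes named also include entries that are not protein-coding, since 15524 of them were protein-coding RefSeq symbols. The shares by class below rest on the same genes.

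**Figure D1:**
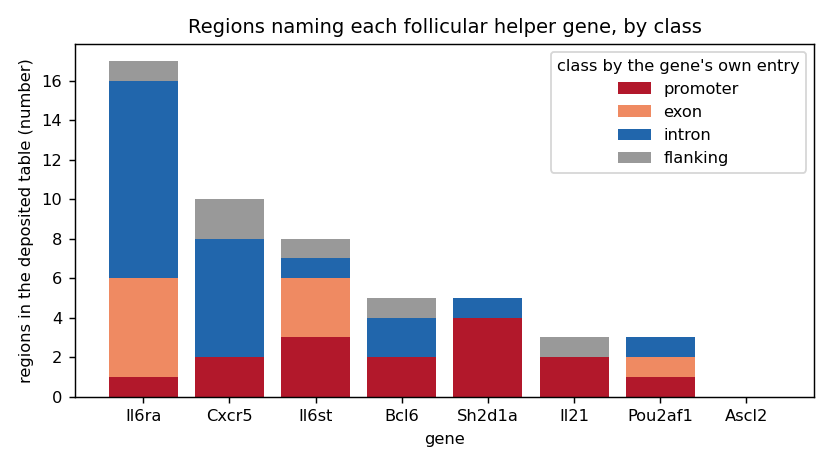
Number of regions that name each of the 8 genes, stacked by class; a region counts as promoter, exon, intron or flanking by the gene's own entry, in that order of precedence. Il6ra has 17 regions, most of them over introns, and Ascl2 has none.

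**Figure D2:**
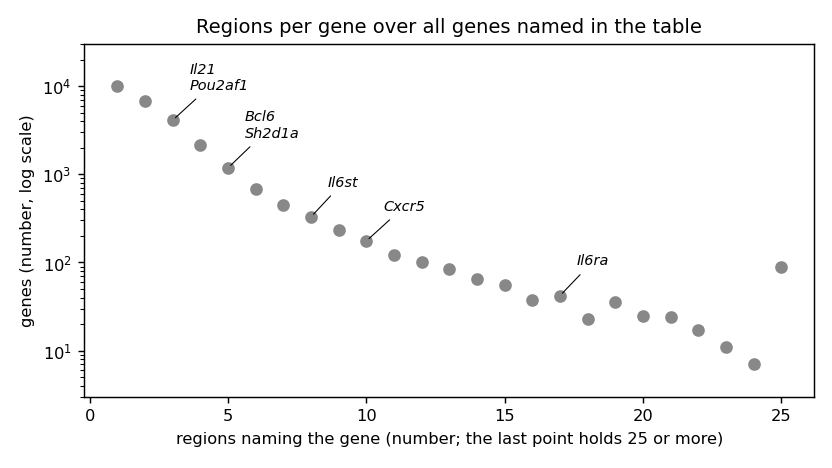
Number of genes (log scale) against the number of regions that name the gene, over all 26755 genes named, with the 7 genes of the follicular helper programme marked. Il6ra, with 17 regions, lies far into the tail, and Il21 and Pou2af1, with 3, lie near the bulk.

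By class, 15 of the 51 regions (29.4%) lay over a promoter of their gene, 9 (17.6%) over an exon away from a promoter, 21 (41.2%) over an intron only, and 6 (11.8%) beside the gene. Over all 76685 pairs of a gene and a region the shares were 37.0% promoter, 7.16% exon, 34.2% intron and 21.7% flanking. The larger exon share at the 8 genes came from Il6ra with 5 exon regions, Il6st with 3 and Pou2af1 with 1. Regions labelled promoter but with no exon lay up to 3000 bp from the nearest exon of their gene over the whole table, so the label covers a wide stretch around a start. Distances to exons were listed up to 5000 bp, and the 45 listed at the 8 genes had a median of 1412 bp (range 37 to 4731) against 1664 bp over all genes.

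The regions were 350 to 800 bp wide, with a median of 600 bp and 7 windows (range 2 to 11). Over all regions the medians were 550 bp and 6 windows. Regions of 8 or more windows made up 37.3% of those at the 8 genes, 19 of 51, and 27.6% of all regions. None of the 51 was a single window, against 2516 of all 65983 regions, and 3 of the 51 had 2 windows. Single windows were a small part of the whole, so their absence here is not read as a trait of these loci. Windows were missing inside 2 of the 51 regions (3.92%, against 2.24% of all), 1 at Bcl6 and 1 at Il6ra.

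**Figure D3:**
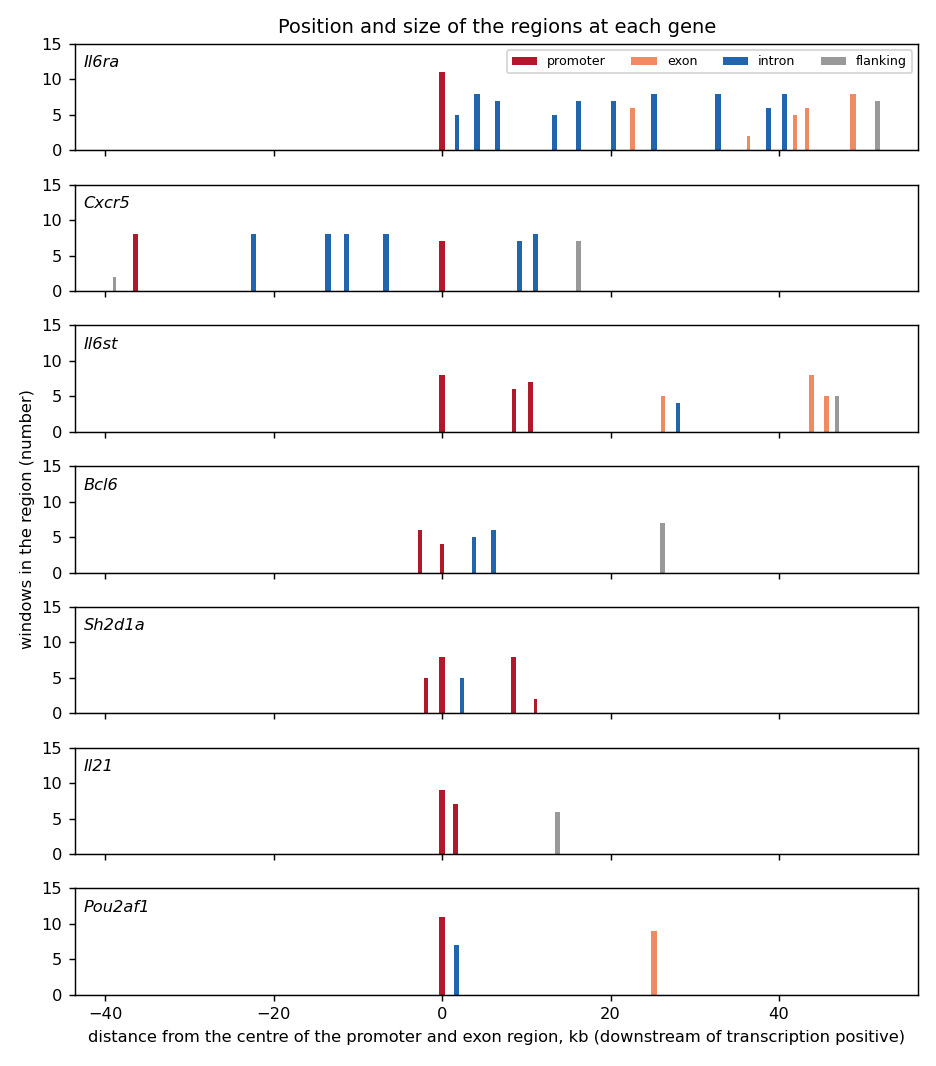
Position of each region as its distance from the centre of the widest region over both promoter and exon of the gene, in kb along the direction of transcription; bar height is the number of windows, bar width is the region's width to scale, and colour is the class. The regions of Il6ra fill the gene body, and those of Sh2d1a stay close together. Those of Cxcr5 reach far upstream of that centre, mostly over introns of the gene.

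Bcl6, the repressor that defines the follicular helper lineage, had 5 regions on chromosome 16 (GRCm39, minus strand). The one with the fewest windows was the region over promoter and exon (23807301 to 23807800), with 4 windows in 500 bp where 5 would fill it. The authors' distances place exon edges at 23807325 and 23807602, inside it. A region labelled promoter lay 2299 bp upstream of the nearest exon (23809901 to 23810450, 6 windows). Inside the gene 2 intronic regions lay at 23803501 to 23804000 (5 windows) and 23801151 to 23801700 (6 windows). The last region (23781051 to 23781650) had 7 windows, the most at this gene, and lay 2152 bp past the 3′ end. Of the 5, 3 also named ENSMUSG00000110291, on the opposite strand, so the promoter region cannot be assigned to Bcl6 alone.

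The surroundings of Bcl6 were sparse in regions. Within 100000 bp of its outermost regions there were 2 further regions, and neither named a gene. The nearer lay 7500 bp upstream and the other 63050 bp downstream. The next region that named any gene was 352050 bp away on the downstream side (Rtp4) and 101050 bp away on the upstream side.

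The Bcl6 windows held the STAT motif, the core that STAT factors such as STAT3 downstream of the IL-6 receptor bind, 4 times. The second RefSeq start had 3 matches, whose first bases lay at -168, -122 and -88 from the start, and the first start had 1 match, at -118. Of all 32851 promoter windows 8.30% held at least 1, and none of the other 5 genes with a window had any. A match is a run of letters and not a measured site.

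Ascl2, a basic helix-loop-helix factor that in mice induces Cxcr5 in the course of follicular helper differentiation, was named by no region. Of 21896 protein-coding RefSeq symbols, 29.1% were not named either, and other spellings in the authors' annotation were not looked for. Ascl2's promoter window was rich in CpG, with 67.0% GC and a CpG content of 0.68 of that expected from its C and G. Of all promoter windows 69.8% had a lower CpG content. Among the 8895 protein-coding genes with a window at 0.6 or above, 88.6% had a promoter region and 607 (6.82%) had no region at all. Ascl2 was thus one of a small group of genes with CpG-rich starts and no listed region. In RefSeq its protein-coding neighbours are Th and Tspan32. Between the last region of Th (142472851 to 142473500 on chromosome 7, in an intron) and the first of Tspan32 (142556401 to 142556950, at its promoter) lay a stretch of 82900 bp with 1 region, 142548601 to 142549250. That region had 8 windows, lay in an intron of ENSMUSG00000052281, and was 75100 bp beyond the one at Th. The absence of a listed region says that none passed the authors' filter, which the sources used here do not describe.

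Pou2af1, a coactivator of octamer factors that is best known in B cells, had 3 regions on chromosome 9 (plus strand). The one over its promoter and exon (51124801 to 51125600) was 800 bp wide with 11 windows, the joint largest of the 51. An intronic region (51126601 to 51127200, 7 windows) followed 1000 bp on. After a gap of 22800 bp came a region over an exon (51150001 to 51150700, 9 windows). Both of the first regions also named ENSMUSG00000111862, on the same strand. Each of the 3 regions held at least 7 windows, against a median of 6 over all regions.

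Il21, the cytokine by which follicular helper cells act on B cells, had 3 regions on chromosome 3 (minus strand). A region over promoter and exon (37286751 to 37287450) held 9 windows in 700 bp. Another of the same class lay 950 bp further into the gene (37285201 to 37285800, 7 windows). The third lay 3208 bp past the 3′ end (37273151 to 37273700, 6 windows). Both promoter regions also named ENSMUSG00000104998 and ENSMUSG00000086517, on the opposite strand.

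The stretch around Il21 was dense in regions without a gene. Within 100000 bp there were 36 further regions, and 23 of them (63.9%) named no gene, against 18.8% of all regions. The 2 shares are not quite alike. The 36 leave out the 3 regions of Il21, which name a gene by definition, while the 18.8% leaves out none. Towards Il2, the gene of interleukin 2, 15 regions lay in the 90200 bp after the region at 37182351 to 37182950, which was labelled as Il2 promoter. Of these 13 named no gene and the other 2 named Gm12532. They held a median of 6 windows (range 1 to 8). Il2 itself had 2 regions. None of these regions can be tied to Il21 or to Il2 from the table.

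**Figure D4:**
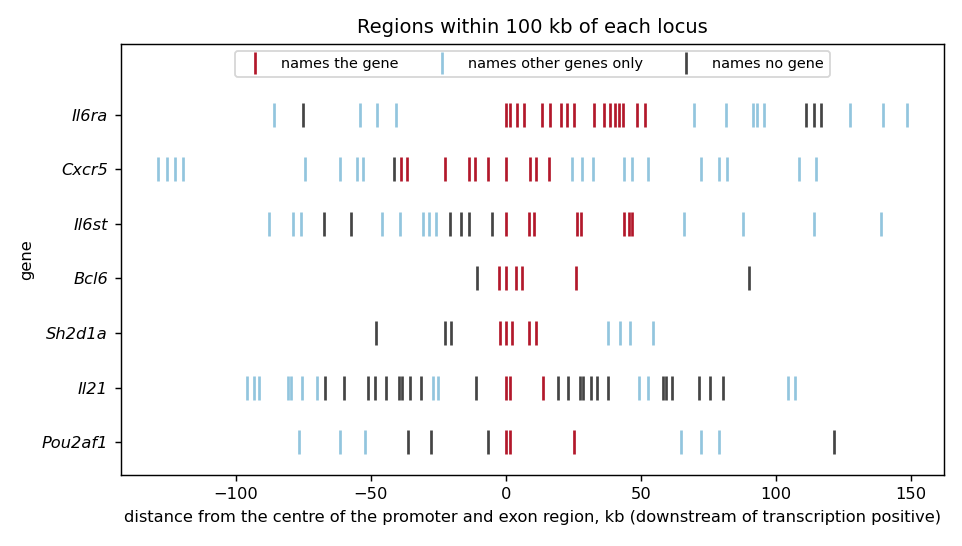
All regions within 100 kb of the outermost regions of each of the 7 genes, as ticks at their distance in kb from the centre of the promoter and exon region along the direction of transcription; red ticks name the gene, blue ticks name other genes only, and dark ticks name no gene. Il21 is set among 23 regions that name no gene, and Bcl6 has 2 further regions in view.

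By CpG content Il21 and Pou2af1 differed from the other genes that had a window. Their windows reached 0.28 and 0.36 of the expected CpG, with 49.0% and 55.3% GC. The medians over all promoter windows were 0.38 and 52.7%, so both windows were near the middle of all. Among the 8596 protein-coding genes with windows under 0.6, 34.8% had a promoter region and 52.0% had no region. Il21 and Pou2af1 were in the smaller group with a promoter region. The windows of Il6st (0.94), Il6ra (0.77) and Bcl6 (1.05 and 0.71) were above 0.6, and these genes had promoter regions as most such genes did.

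Cxcr5, the receptor for CXCL13 that leads cells into follicles, had 10 regions on chromosome 9 (minus strand) over 55500 bp. A region over promoter and exon (44437701 to 44438300, 7 windows) was the only one that touched an exon of Cxcr5. A second region labelled promoter (44474051 to 44474700, 8 windows) lay 36375 bp upstream of it, 877 bp from an exon edge at 44473174. Between them were 4 intronic regions, at 44444301 to 44444950, 44449001 to 44449650, 44451201 to 44451850 and 44460051 to 44460700. All 4 were 650 bp wide with 8 windows. Of the 10 regions, 6 thus lay upstream of the region over promoter and exon. Downstream lay intronic regions at 44428551 to 44429150 (7 windows) and 44426551 to 44427200 (8 windows). The second of these also named a neighbour, Bcl9l. The region past the 3′ end, 984 bp away, overlapped an exon of the neighbour Bcl9l. The region furthest upstream (44476651 to 44477000) had 2 windows. The median of 8 windows was the highest of the genes with more than 3 regions.

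Sh2d1a, which encodes SAP, the adaptor by which SLAM family receptors signal in T cell contacts with B cells, had 5 regions on chromosome X (plus strand). All 5 lay over the gene or its promoters, none named another gene, and 4 carried the promoter label. The first (41589501 to 41590000, 5 windows) lay 1330 bp before an exon. The second (41591351 to 41592000, 8 windows) was over promoter and exon. An intronic region followed (41593801 to 41594300, 5 windows). A further pair of regions labelled promoter and intron, 41599851 to 41600500 with 8 windows and 41602601 to 41602950 with 2, lay 8500 and 11100 bp downstream. The 5 regions covered 19.7% of the 13450 bp that they span, a share close to the 19.3% at Il6ra and above the 8.11% to 12.9% at the other 5 genes.

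Il6ra, the chain of the IL-6 receptor that binds the cytokine, had 17 regions on chromosome 3 (minus strand). They spanned 52400 bp and were a median of 1950 bp apart (range 700 to 6950). The region over promoter and exon (89819951 to 89820750) was 800 bp wide with 11 windows, as large as that of Pou2af1. It also named ENSMUSG00000105941 on the opposite strand, as did the next 2 regions into the gene. Over introns only lay 10 regions, which held 5 to 8 windows, among them a region of 800 bp with 8 windows where 11 would fill it (89815801 to 89816600). Over exons lay 5, the smallest with 2 windows (89783801 to 89784150) and the largest with 8 (89771251 to 89771900). The region past the 3′ end lay between Il6ra, 2416 bp away, and She. The E box in its promoter window began at -192 from the start.

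Il6st, which encodes gp130, the chain through which the IL-6 receptor signals, had 8 regions on chromosome 13 (plus strand) in 3 groups. Around the start were a region over promoter and exon (112600251 to 112600900, 8 windows), another 7950 bp on (112608851 to 112609400, 6 windows) and a region of promoter and intron (112610751 to 112611350, 7 windows). After 15200 bp came an exon region (112626551 to 112627050, 5 windows) and an intronic one (112628401 to 112628850, 4 windows). After another 15250 bp came 2 exon regions, 112644101 to 112644750 with 8 windows and 112645951 to 112646450 with 5. The last region, with 5 windows, lay 631 bp past an exon (112647251 to 112647750). No region named another gene. Both chains of the IL-6 receptor therefore had regions near the start and the end of the gene. The groups at Il6st were 15200 and 15250 bp apart, and the largest gap at Il6ra was 6950 bp. Regions were denser at Il6ra, with 3.24 per 10 kb of the span of its regions, than at Il6st with 1.68.

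The E box CAGNTG occurred in the windows of 3 of the 6 genes, Il21, Il6ra and Ascl2, once each. It began at -185 from the start at Il21, as CAGATG, and at -249 at Ascl2, as CAGGTG. By window this was 3 of 7, and of all promoter windows 51.4% held at least 1. With the wider motif CANNTG, 6 of the 6 genes and 6 of the 7 windows had a match, against 72.3% of all windows. The AP-1 motif TGANTCA was in none of the 7 windows and in 7.81% of all. The TCF and LEF motif CTTTGA was in 1, that of the second Bcl6 start, and in 16.0% of all. That a window lacks these letters says nothing of the factors elsewhere at the locus.

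Of the 15 promoter regions 4 (26.7%) named genes on both strands as promoter, against 16.9% of all 22920 promoter regions. These were at Bcl6, Il21 and Il6ra.

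Of all protein-coding RefSeq symbols, 70.9% were named by a region, with a median of 2 regions per symbol. All 24 genes of a wider follicular helper list had a region, with a median of 5.5 per gene. Lef1, a TCF family factor, had the most with 21, followed by Prdm1, which encodes Blimp-1, the antagonist of Bcl6, with 11. At the low end Maf and Sostdc1 had 1 each. The 12 Th1 genes also all had regions, with a median of 5.5, led by Stat4 with 17 and Il12rb2 with 12. The 8 genes, with a median of 5, were thus close to both lists. Of 10 Th17 and Treg genes 8 had regions (median 4.5), with Il17a and Il22 the exceptions. The B cell, myeloid and erythroid list, with regions at 10 of 13 genes, had a median of 2, the same as over all protein-coding symbols. The exon share of 17.6% at the 8 genes compares with 12.8% in the wider follicular helper list, 10.1% in the Th1 list and 6.82% in the Th17 and Treg list. No test was made of these differences, since the lists were chosen with results of these data known.

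In the authors' deposited table, the adjusted p-values listed in the rows of the 51 regions would put 13 of them (25.5%) under 0.05 in 1 contrast, Teff against Tcmp in Id3-KO cells. These were all 8 regions of Il6st and all 5 of Bcl6, with listed adjusted p-values of 0.0124 to 0.0197 and 0.0237 to 0.0358. Over all regions 44.0% were under 0.05 in that contrast. Under 0.01 there were 0 of 51, against 21.8% of all. In the other contrasts 0 of the 51 rows were under 0.05, against 12.7% of all regions for Id3-KO over WT in Th1 cells at 24 h. The shares of all regions were 18.7% for the same comparison in Tcmp cells, 9.52% in Teff cells, 22.9% in both labels pooled, and 2.32% for Teff against Tcmp in WT cells. By unadjusted p-values listed in the authors' deposited table, the rows under 0.05 numbered 1 for Th1, 1 for Tcmp, 0 for Teff and 4 for both labels pooled. They numbered 14 for Teff against Tcmp in Id3-KO cells and 0 in WT cells.

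These listed values followed the place of a gene in the table and the number of windows in each region. The table runs through the chromosomes in text order, from 1 to 10 and on to 19 before 2, and the rows of Il6st (18793 to 18800, chromosome 13) and Bcl6 (24989 to 24993, chromosome 16) come before those of the other genes. In the contrast with 13 listed calls the last row under 0.05 was row 39878. Il21, in rows 39125 to 39127, stood just before that row, with listed adjusted p-values of 0.195 to 0.275 in the authors' deposited table, and Il6ra, in rows 40201 to 40217, just after it. The rows of Cxcr5, Pou2af1 and Sh2d1a come last, and all 18 of them listed a p-value of 1 in each of the 6 contrasts. Within a gene the listed p-value was proportional to the number of windows. For Id3-KO over WT in Th1 cells the p-value divided by the number of windows was 0.02277 to 0.02278 across the 5 regions of Bcl6, a spread of 0.0322%. Across the 8 regions of Il6st it was 0.01104 to 0.01106, and across the 3 of Il21 0.08858 to 0.0886. At Il6ra it was 0.09806 to 0.09819 in the 16 regions with a p-value below 1. The smallest listed p-values at Bcl6 and Il6ra in this contrast, 0.0911 and 0.196, were thus those of their smallest regions, with 4 and 2 windows.

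**Figure D5:**
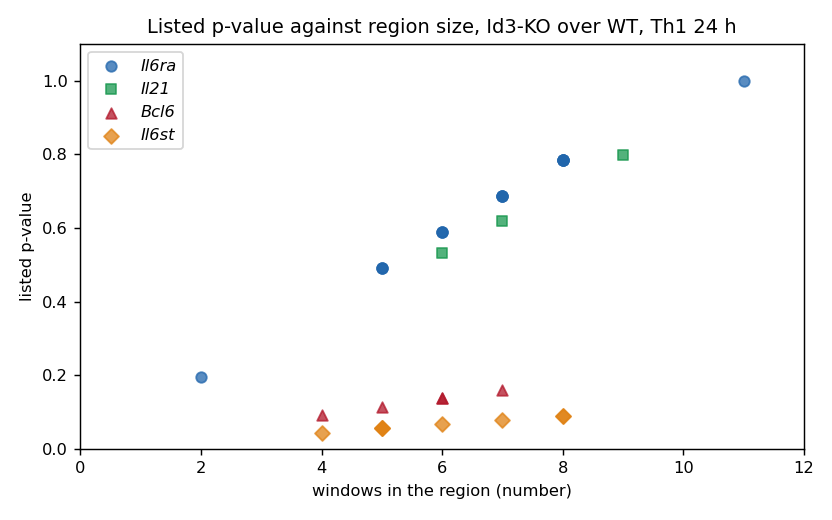
Listed p-value of each region in the authors' deposited table, for Id3-KO over WT in Th1 cells at 24 h, against the number of windows in the region, for Il6ra, Il21, Bcl6 and Il6st. Points below 1 lie on a line through 0 for each gene, at about 0.09806 per window for Il6ra and 0.01104 for Il6st.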

How the data were processed

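The data analysed were 1 deposited table of the authors' own comparisons, with 65983 regions under each of 6 contrasts and no value per sample. Per the submitters' processing notes, the tools were BWA, Trim Galore, edgeR and Picard, on the build GRCm39, with no versions or roles. Per the file headers, each row gives a deposited p-value and its adjusted p-value, the log2 fold change of a representative window, the number of windows, and the genes overlapped or nearby with their strand, class or distance to an exon. The log2 fold changes were not used. The sources used here do not give library depth, window filters or scaling, so no interval from depth is printed.

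Gene names were split out of the annotation in Python 3.11.15 with pandas 2.3.3, and a gene's class in a region was taken as promoter, then exon, then intron, else flanking. The splitting was checked on made-up rows. Exon edges are region ends shifted by the listed distances. CpG content is the observed CpG count over that expected from the C and G of the window. The members and lists were chosen with earlier results of these data known. All 8 members are named, and of the other lists only genes without a region or with the most or second most regions. Maf and Sostdc1 were added after their values were seen. Planned sequence features of whole regions were not obtained without a genome of the build, and RefSeq promoter windows stood in for them. The planned density per gene span was not obtained for the same reason. No test was run.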

Additional observations from a re-analysis of the deposited data

How the results depend on the processing

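No paired analysis was possible because samples have no values of their own in these data, and for the same reason no replicate was left out. The total of 51 regions became 45 with overlapping regions only, 38 with regions naming no other gene, and 51 with a distance limit of 5000 bp or with 2 or more windows. With regions naming no other gene, Bcl6 fell from 5 to 2, Il21 from 3 to 1 and Pou2af1 from 3 to 1. The median listed distance of 1412 bp became 2416 bp over the 5 regions that overlap no gene. The shares by class became 33.3% promoter, 20.0% exon and 46.7% intron with overlapping regions only. The 13 rows under an adjusted p of 0.05 for Teff against Tcmp in Id3-KO cells became 0 at 0.01. With the wider E box CANNTG, 6 of 6 genes had a match in place of 3, where 72.3% of all promoter windows had one. With the first start of each gene only, a setting chosen after seeing the data, it was 3. Whole regions against their middle 300 bases was not run, since no genome of the build was given.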

Other observations

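Regions at genes of other lineages were listed beside those of the follicular helper programme. Ebf1, a factor of B cell identity, had 10 regions, the most in its list, where the median was 2. Cxcr5 also had 10, and neither count is corrected for gene length. Ms4a1, Csf1r and Lyz2 had none. Over the 7 loci together, 109 further regions lay within 100000 bp of the outermost regions, of which 43 (39.4%) named no gene. Those around Il21 made up 23 of the 43.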
